A study of Mus musculus with 18 samples.

Results

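Chaperones of the heat shock, DNAJ and protein disulfide isomerase (PDI) families were followed in mouse bone marrow-derived dendritic cells. A gene was a member when its symbol began with Hspa, Hspb, Hspd, Hspe or Hsph, with Dnaja, Dnajb or Dnajc, or with Pdia, each followed by a digit, when it began with Hsp90, or when it was Calr or Canx. This gave 74 of the 16614 genes in the expression table. By the site at which each product is known to work, 34 members were cytosolic, 15 lay inside the endoplasmic reticulum (ER), 8 were mitochondrial, 4 were ER membrane proteins with their J domain in the cytosol, and 13 were put together as other. The other members include Dnajc16 and Dnajc25, which have also been described as ER J proteins. Of the 74 members, 61 passed the filter on low counts, namely 24 cytosolic, 14 ER, 8 mitochondrial, 4 ER membrane and 11 other members. None of the 13 untested members exceeded 0.396 CPM (estimated counts scaled to a common library size) in any library, and Hspb1, which encodes the Hsp27 type of small heat shock protein, and Pdia2 were among them.

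The groups were KO LPS (n = 5), WT LPS (n = 5), KO control (n = 4) and WT control (n = 4). In all 4 groups, bone marrow had been grown over 7 to 10 days with 100 ng/ml of Flt3L beside 20 ng/ml of GM-CSF, and cells with XCR1 on their surface, the mark of type 1 conventional dendritic cells (cDC1), were then taken either by sorting CD11c+ Xcr1+ cells or with magnetic beads. LPS, the bacterial lipopolysaccharide sensed by Toll-like receptor 4, was the treatment. The labels give neither the deleted gene, the LPS dose, the exposure time nor the purification of each sample, so the KO label was not checked against a transcript, and they do not say whether replicates were separate cultures or animals, so the p-values measure the spread between these samples, which may be technical.

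Chaperones bind unfolded proteins and give them further chances to fold. Hsp70 proteins do this in cycles of ATP use that J proteins (the DNAJ family) start and that nucleotide exchange factors such as the Hsp110 proteins reset, while Hsp90 acts later on partly folded clients. The ER has its own set, with BiP (Hspa5) as its Hsp70, Grp94 (Hsp90b1) as its Hsp90, the lectin chaperones calreticulin (Calr) and calnexin (Canx) for glycoproteins, and PDI enzymes for disulfide bonds. Cytosolic stress genes are classically switched on by heat shock factors, which bind heat shock elements, and ER chaperone genes by the unfolded protein response (UPR), whose factors bind ER stress elements. In dendritic cells the ER set also serves antigen presentation, since calnexin, calreticulin and ERp57 (Pdia3) take part in loading peptides on MHC class I.

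Library totals ran between 25590104 and 27375189 estimated counts, and 11989 genes were tested. All 9 cDC1 markers on the list were above 1 CPM in every group. Their sums were 5569 to 6425 CPM in KO LPS, 5891 to 7268 CPM in WT LPS, 6924 to 8078 CPM in KO control and 7557 to 7868 CPM in WT control. Wdfy4 and Irf8 had the highest averages in every group, and single markers moved both ways. In that order, Xcr1 averaged 281, 428, 109 and 175 CPM and Clec9a 357, 376, 273 and 267 CPM. Lower with LPS were Tlr3 (77.6, 71.3, 346 and 329 CPM), Itgae (38.7, 58.5, 226 and 269), Batf3 (11.5, 15.0, 25.0 and 20.0) and Naaa (514, 986, 1244 and 1119). Markers of other cells moved with LPS too. The 8 monocyte and macrophage markers summed to 140.6 to 246 CPM in KO LPS and 139.9 to 296 CPM in WT LPS, against 94.6 to 114 CPM in KO control and 72.9 to 99.2 CPM in WT control. The 5 plasmacytoid dendritic cell markers summed to 544 to 599 CPM in KO LPS and 475 to 687 CPM in WT LPS, against 93.6 to 101 CPM in KO control and 86.1 to 91.1 CPM in WT control, although Siglech, which defines those cells, averaged 1.18, 1.23, 3.57 and 3.76 CPM in the same order. The 4 B cell and plasma cell markers in the table, of 5 listed, summed to 11.7 to 21.6, 13.7 to 33.6, 4.46 to 5.30 and 4.74 to 6.45 CPM. Jchain averaged 2.04, 2.33, 0.097 and 0.117 CPM, Sdc1 6.97, 8.34, 2.39 and 3.01 CPM, and Prdm1 6.15, 8.92, 2.27 and 2.05 CPM, each higher with LPS. Mzb1, a plasma cell gene, was at 0 in all KO libraries and averaged 0.029 CPM in WT LPS and 0.021 CPM in WT control. The 6 lymphocyte markers summed to 3.76 to 6.55, 2.00 to 3.90, 0.197 to 0.592 and 0.167 to 0.523 CPM, mainly through Ms4a1, a B cell gene that averaged 3.86, 2.72, 0.154 and 0.151 CPM. The 7 cDC2 markers summed to 135 to 186, 172 to 256, 199 to 208 and 201 to 237 CPM. Neutrophil markers reached 83.5 CPM in WT LPS replicate 5 and 25.4 CPM in the highest WT control library, against at most 2.05 CPM in KO LPS and 1.74 CPM in KO control. The part of these cells in the chaperone results was not tested. WT LPS replicate 2 stood apart, with a mean absolute deviation of 0.222 (log2) from its group, against 0.054 to 0.133 in the other libraries.

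Because several ER members rose together under LPS, their promoters were read for the ER stress element, searched as CCAAT and CCACG with 9 bases of any kind between them, on both strands, in the 250 bases before the start of transcription. Promoters came from RefSeq (build GRCm38.p6), which held 62 of the 74 members. The element was found in 6 of 14 ER members (42.9%) and in 0 of 28 cytosolic members, and in 35 of 27025 genes with a promoter in the table (0.13%). The members with a match were Calr, Canx, Dnajc3, Hsp90b1, Hspa5 and Pdia6, and all 6 were higher with LPS in both genotypes, as were 11 of the 14 tested ER members and, of all tested genes, 40% in KO and 40.7% in WT. With libraries scaled to their plain total counts, Calr, Hspa5 and Pdia6 stayed higher, Canx was not called, Dnajc3 was lower, and Hsp90b1 was not called in KO and lower in WT. The whole 250 bases are given for Hspa5, the member of the ER set with the largest change, and only the element with 15 bases to each side for the others, so that the copies can be compared. Capitals mark the element, which reads in reverse complement in Calr and in the second of the 2 copies of Hsp90b1.
Hspa5 (chr2:34771840-34772089, plus strand): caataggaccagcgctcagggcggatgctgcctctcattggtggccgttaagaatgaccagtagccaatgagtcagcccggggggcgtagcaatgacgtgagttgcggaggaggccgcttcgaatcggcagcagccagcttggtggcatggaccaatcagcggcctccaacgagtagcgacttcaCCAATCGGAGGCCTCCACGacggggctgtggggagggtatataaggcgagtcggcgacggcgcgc
Calr (chr8:84847060-84847108, minus strand): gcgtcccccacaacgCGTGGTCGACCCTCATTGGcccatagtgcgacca
Canx (chr11:50325785-50325833, minus strand): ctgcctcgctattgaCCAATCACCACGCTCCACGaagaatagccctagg
Dnajc3 (chr14:118937812-118937860, plus strand): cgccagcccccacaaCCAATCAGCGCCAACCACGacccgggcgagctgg
Hsp90b1 (chr10:86705518-86705671, minus strand): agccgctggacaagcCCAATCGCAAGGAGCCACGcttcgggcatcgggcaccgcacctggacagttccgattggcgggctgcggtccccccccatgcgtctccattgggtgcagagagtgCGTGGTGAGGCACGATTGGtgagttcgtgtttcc
Pdia6 (chr12:17266476-17266524, plus strand): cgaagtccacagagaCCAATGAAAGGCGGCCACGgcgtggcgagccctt

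Heat shock elements were searched in the same promoters. A run of 3 units, searched as GAA and TTC in turn with 2 bases of any kind between neighbours, was found in 1 of 28 cytosolic, 0 of 14 ER and 2 of 5 mitochondrial members, or 3 of 62 in all (4.84%), and in 0.514% of all promoters. Of these 3, Dnajb6 rose with LPS, while Hspd1 and Hspe1, a head-to-head gene pair with a common promoter region, fell, in both genotypes. The shorter form of GAA followed by TTC, which every 3-unit run contains, was found in 7 of 28 cytosolic members (25%), 0 of 14 ER members and 2 of 5 mitochondrial members, and in 7.73% of all promoters. Among all 10 members with it, 8 were tested, of which 5 rose (Dnaja1, Dnajb6, Dnajc27, Hspa1a and Hspa1b) and 3 fell (Hspb6, Hspd1 and Hspe1) in both genotypes, and the rise of Dnajc27 ended under scaling to the plain total. As background, 40% of all tested genes rose and 46.2% fell in KO, and 40.7% and 44.7% in WT. The form of TTC followed by GAA, also part of every 3-unit run, was found in 3 of 28 cytosolic members (10.7%), 1 of 14 ER members (7.14%) and 2 of 5 mitochondrial members, and in 8.11% of all promoters, with Hsph1 among the cytosolic ones. Of 2 further UPR motifs, TGACGTGG matched 1 of 62 members (Dnajc25, against 0.603% of all promoters) and ATTGG and CCACG with 1 base between them matched 0 of 62 (against 0.037%). The sequences below show matches of each form, in capitals, in genes that rose, fell or were not called. They are the 3-unit run in Dnajb6 and Hspe1 (2 overlapping runs in Hspe1), GAA followed by TTC in Hspa1a, Dnaja1 and Hspb6, and TTC followed by GAA in Hsph1. The 250 bases of Hspa1a stand for the stress-inducible Hsp70 genes.
Hspa1a, rose (chr17:34972157-34972406, minus strand): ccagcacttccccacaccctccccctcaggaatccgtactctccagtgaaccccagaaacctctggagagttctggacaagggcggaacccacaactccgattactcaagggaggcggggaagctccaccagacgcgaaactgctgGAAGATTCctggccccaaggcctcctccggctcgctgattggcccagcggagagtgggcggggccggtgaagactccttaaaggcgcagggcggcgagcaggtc
Dnaja1, rose (chr4:40722329-40722366, plus strand): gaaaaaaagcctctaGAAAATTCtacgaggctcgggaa
Dnajb6, rose (chr5:29735837-29735879, plus strand): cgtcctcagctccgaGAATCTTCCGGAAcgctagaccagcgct
Hspe1, fell (chr1:55088044-55088091, plus strand): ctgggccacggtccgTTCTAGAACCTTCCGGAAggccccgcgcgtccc
Hspb6, fell (chr7:30553166-30553203, plus strand): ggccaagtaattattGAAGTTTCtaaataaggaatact
Hsph1, not called (chr5:149636347-149636384, minus strand): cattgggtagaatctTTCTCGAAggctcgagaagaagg
A match is a description of these letters, not evidence of binding, and a window without one says nothing of the factor.

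The first question was how LPS-treated cells differed from control cells of the same genotype. Within the ER, LPS was followed by more BiP, more lectin chaperone and more of most PDI and J protein transcripts. All 14 tested ER members passed the test (edgeR, adjusted p under 0.05) in both genotypes, 11 higher and 3 lower. The background was broad. LPS moved 86.2% of all tested genes in KO (40% higher, 46.2% lower) and 85.5% in WT (40.7% higher, 44.7% lower), so that a call alone set no member apart. Over all 61 tested members, 33 rose and 21 fell in each genotype, among them Hspa1l and Dnajc28, each of which passed the filter only through the group where it was high. Libraries did not overlap between LPS and control for 33 higher and 21 lower members in KO, against 37.8% and 44% of all tested genes, and for 32 higher and 19 lower members in WT, against 36.6% and 41.3%. The median log2 change of the ER members was 0.61 in KO and 0.54 in WT, against -0.10 in KO and -0.06 in WT over all tested genes. In bulk samples, fewer cells of a type and less RNA per cell cannot be told apart. The direction of part of these changes also depends on scaling. TMM factors, which rescale each library's total, were 0.743 to 0.850 with LPS and 1.32 to 1.37 in control, and scaling to the plain total moved the median of all genes by -0.78 (log2) in KO and -0.74 in WT. CPM values and fold changes given here are TMM scaled. Under total-count scaling, 5 of the 11 ER members that rose stayed higher in both genotypes, namely Calr, Dnajb11, Hspa5, Pdia3 and Pdia6.

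Hspa5 (gene ID 14828), the ER Hsp70 that holds the UPR sensors inactive, had the largest change of the ER set. With LPS it stood at 3018, 2877, 2642, 2899.8 and 2872 CPM in KO and at 2924, 3233, 2267, 2592 and 2762 CPM in WT, against 541, 439, 495 and 568 CPM in KO control and 588, 465, 529 and 522 CPM in WT control. Every LPS library was above every control library, and the lowest LPS value was WT replicate 3. The log2 change was 2.49 ± 0.10 (SE) in KO (edgeR adjusted p = 5.5e-15), a 5.60-fold rise, and 2.39 ± 0.10 in WT (adjusted p = 1.1e-14), a 5.24-fold rise. It stayed higher under total-count scaling, at 1.70 in KO and 1.64 in WT. Hspa13 (Stch), a microsomal Hsp70 relative, fell, with log2 changes of -0.27 ± 0.05 in KO and -0.41 ± 0.05 in WT.

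The lectin chaperones and their partner ERp57 rose in both genotypes. Calr (gene ID 12317) stood at 1588, 1662, 1551, 1638 and 1634 CPM in KO LPS and 1819, 1656, 1536, 1626 and 1569 CPM in WT LPS, against 837, 764, 831 and 915 CPM in KO control and 823, 758, 786 and 779.6 CPM in WT control. Its log2 change was 0.95 ± 0.06 in KO (edgeR adjusted p = 3.9e-12) and 1.06 ± 0.06 in WT (adjusted p = 8.3e-13). The groups did not overlap in either genotype. Canx (gene ID 12330), its membrane-bound relative, stood at 537, 565, 595, 573 and 585 CPM in KO LPS and 559, 533, 574, 561 and 538 CPM in WT LPS, against 309.8, 305, 307 and 323 CPM in KO control and 328, 318, 337 and 322 CPM in WT control. The log2 change of Canx was 0.88 ± 0.04 in KO and 0.76 ± 0.04 in WT, and it was not called under total-count scaling (0.10 in KO, adjusted p = 0.12, and 0.02 in WT). Pdia3 (gene ID 14827), the PDI that works with both lectins, stood at 1176, 1231, 1183, 1195 and 1171 CPM in KO LPS and 1155, 1373, 1094, 1129.5 and 1129 CPM in WT LPS, against 581, 559, 590.4 and 664 CPM in KO control and 605, 565, 581 and 548 CPM in WT control. WT LPS replicate 2 was the highest Pdia3 library, and no LPS library was as low as a control one. The log2 change of Pdia3 was 0.99 ± 0.06 in KO and 1.03 ± 0.06 in WT.

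The remaining PDI members went in different directions. Pdia6 (P5) rose by 1.03 ± 0.05 on the log2 scale in KO and 0.99 ± 0.05 in WT, close to Pdia3. Pdia4 (ERp72), by contrast, differed by only 0.15 ± 0.05 in KO (edgeR adjusted p = 0.0085) and 0.15 ± 0.05 in WT (adjusted p = 0.008). That call ended when no filter on low counts was used (adjusted p = 0.080 in KO and 0.091 in WT), and under total-count scaling Pdia4 was lower, at -0.63 in KO and -0.59 in WT. Pdia5 had the steepest fall of the members counted here as ER. It stood at 22.2, 16.6, 20.1, 22.2 and 20.0 CPM in KO LPS and 16.2, 19.9, 16.1, 15.8 and 16.5 CPM in WT LPS, against 32.8, 37.4, 35.7 and 38.1 CPM in KO control and 25.7, 32.3, 27.2 and 30.5 CPM in WT control, with log2 changes of -0.83 ± 0.09 and -0.78 ± 0.09. The highest LPS value, 22.2 CPM in KO, was still under every control library.

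Hsp90b1 (Grp94, gene ID 22027), the Hsp90 of the ER, rose less than BiP. It stood at 942, 944, 968, 995 and 953 CPM in KO LPS and 944, 980.1, 864, 919.9 and 923 CPM in WT LPS, against 574, 543, 572 and 669 CPM in KO control and 621, 574, 622 and 594 CPM in WT control. The log2 change was 0.70 ± 0.06 in KO and 0.62 ± 0.06 in WT, with the sign reversed under total-count scaling (-0.08, not called, in KO and -0.13, called, in WT). Of the 5 J proteins counted here as ER members, which bring substrates to BiP, 4 rose and 1 fell in each genotype. The shares of all tested genes were 40% higher and 46.2% lower in KO, and 40.7% and 44.7% in WT. Dnajc16 (-0.69 in KO and -0.56 in WT) and Dnajc25 (-1.49 and -1.13), counted among the other members, fell. Dnajb11 (ERdj3) had the largest rise, 1.06 ± 0.06 in KO and 1.09 ± 0.06 in WT. Dnajc3 (P58IPK) rose by 0.52 ± 0.05 in KO and 0.46 ± 0.05 in WT, Dnajc10 (ERdj5) by 0.47 ± 0.05 in KO and 0.37 ± 0.05 in WT, and Dnajb9 (ERdj4), a known UPR target, by 0.29 ± 0.07 in KO and 0.36 ± 0.07 in WT, and all 3 were lower under total-count scaling. Dnajc1 (ERdj1) fell, at -0.44 ± 0.06 in KO and -0.44 ± 0.06 in WT.

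**Figure D1:**
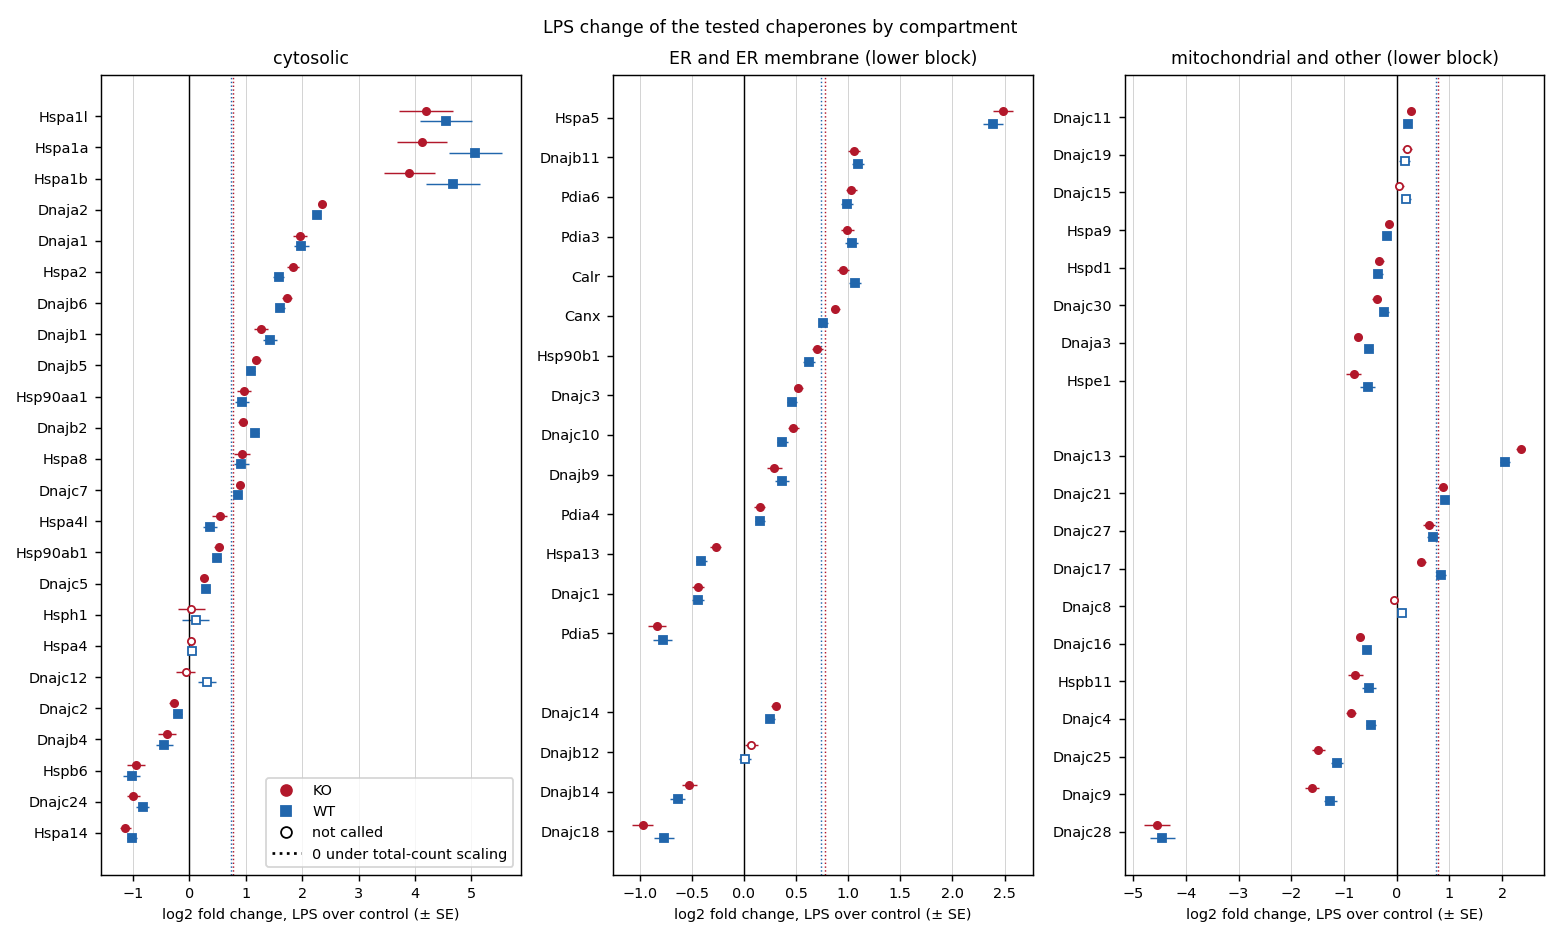
Log2 change, LPS against control, with its SE, for the tested members by compartment, in KO and in WT. Hspa5 stands highest in the ER at 2.49 in KO and 2.39 in WT. Hspa1a, Hspa1b and Hspa1l stand highest in the cytosol, but Hspa1l passed the filter only through its LPS libraries, which fixed its rise. Of 8 mitochondrial members, 5 were called lower (of all tested genes, 46.2% in KO and 44.7% in WT). Values are TMM scaled, and total-count scaling moves the median of all genes by -0.78 in KO and -0.74 in WT, which turns the direction of small rises such as those of Dnajb9 and Pdia4.

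In the cytosol, the largest rises were those of the Hsp70 genes Hspa1a, Hspa1b and Hspa1l and of the J proteins Dnaja1 and Dnaja2. Of 24 tested cytosolic members, 16 rose (Hspa1l, whose rise the filter fixed, among them), 5 fell and 3 were not called in each genotype, with a median log2 change of 0.92 in KO and 0.89 in WT. Among all tested genes, 40% rose and 46.2% fell in KO, and 40.7% and 44.7% in WT. Under total-count scaling, 10 of the 16 in KO and 11 of the 16 in WT were still higher. Hspa1a (gene ID 193740), the inducible Hsp70 that is low in unstressed cells, varied widely among the LPS libraries. With LPS it stood at 73.5, 136, 264, 165 and 159 CPM in KO and 43.4, 256, 251, 139.7 and 183 CPM in WT, against 11.5, 7.11, 9.20 and 8.81 CPM in KO control and 5.50, 3.57, 5.00 and 6.72 CPM in WT control. LPS replicate 1 was lowest in both genotypes, and it was still several times the highest control value. The log2 change was 4.12 ± 0.44 in KO (edgeR adjusted p = 2.9e-08) and 5.07 ± 0.47 in WT (adjusted p = 3.5e-09), or 17.4-fold and 33.6-fold. Its near-identical neighbour Hspa1b (gene ID 15511) stood at 53.6, 95.8, 194, 117 and 113 CPM in KO LPS and 27.5, 183, 177, 102 and 140.4 CPM in WT LPS, against 10.0, 5.96, 8.08 and 6.80 CPM in KO control and 4.52, 3.93, 4.03 and 7.24 CPM in WT control. The log2 change of Hspa1b was 3.90 ± 0.45 in KO and 4.67 ± 0.48 in WT. Of the 100-base windows of their transcripts (GENCODE M21), 48.6% of Hspa1a and 49.9% of Hspa1b occur elsewhere in the transcriptome, chiefly in each other, so the split of reads between the pair is uncertain.

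Hspa1l, a further Hsp70 gene, known mainly from testis, passed the filter only through its LPS libraries. It had 29, 40, 63, 37 and 31 estimated counts in KO LPS and 22, 81, 68, 45 and 50 in WT LPS, against 7, 4, 2 and 2 in KO control and 6, 3, 1 and 5 in WT control. Hspa2, best known from sperm development, rose by 1.84 ± 0.10 on the log2 scale in KO and 1.58 ± 0.10 in WT. Hspa8 (Hsc70, gene ID 15481), the constitutive Hsp70, was the cytosolic member with the highest TPM in every group. It stood at 2618, 3125, 4417, 3472 and 3351 CPM in KO LPS and 2389, 3612, 4032, 3224 and 3344 CPM in WT LPS, against 1600.1, 1904, 1789.7 and 1821 CPM in KO control and 1614, 1956, 1717 and 1721 CPM in WT control. The log2 change was 0.93 ± 0.13 in KO (edgeR adjusted p = 2.1e-06) and 0.92 ± 0.13 in WT (adjusted p = 2.6e-06), without overlap between LPS and control, but it was not called under total-count scaling (0.16 in KO, adjusted p = 0.28, and 0.18 in WT). Of its windows, 62.8% are shared with other transcripts, mostly a pseudogene. Hspa14, a ribosome-associated relative, was the cytosolic member with the steepest fall, -1.13 ± 0.09 in KO and -1.02 ± 0.09 in WT, and Hspb6 (Hsp20), the only cytosolic small heat shock protein tested, fell too, with log2 changes of -0.95 ± 0.16 in KO and -1.02 ± 0.15 in WT.

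Both cytosolic Hsp90 genes were called higher. Hsp90aa1 (Hsp90 alpha, gene ID 15519), the inducible form, stood at 447, 550.3, 769, 608 and 593 CPM in KO LPS and 442, 633, 699, 581 and 579 CPM in WT LPS, against 283, 300.3, 303 and 331 CPM in KO control and 297, 314, 314 and 300.5 CPM in WT control. Its log2 change was 0.96 ± 0.12 in KO (edgeR adjusted p = 4.8e-07) and 0.94 ± 0.12 in WT (adjusted p = 7.4e-07), and 0.19 in each genotype under total-count scaling, which was not called. Hsp90ab1 (Hsp90 beta), the constitutive form, changed by 0.52 ± 0.08 in KO and 0.49 ± 0.08 in WT, and was lower under total-count scaling (-0.26 in both). Windows shared with other transcripts made up 47.5% of Hsp90aa1, mostly with a pseudogene.

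Hsph1 (Hsp105, gene ID 15505), a classical heat shock target and the Hsp110 exchange factor, was not called. It stood at 21.6, 27.5, 56.5, 36.8 and 36.0 CPM in KO LPS and 20.3, 30.1, 57.8, 42.2 and 37.7 CPM in WT LPS, against 31.0, 37.9, 34.3 and 36.5 CPM in KO control and 29.5, 38.6, 36.9 and 34.2 CPM in WT control. The LPS libraries lay on both sides of the controls, replicate 1 below them and replicate 3 above them in both genotypes. The log2 difference was 0.03 ± 0.24 in KO (edgeR adjusted p = 0.9) and 0.11 ± 0.24 in WT (adjusted p = 0.66), and under total-count scaling Hsph1 was called lower (-0.74 in KO and -0.62 in WT). Of the other Hsp110 members, Hspa4 had values of 0.03 ± 0.06 in KO and 0.05 ± 0.06 in WT and was not called, whereas Hspa4l was called higher at 0.54 ± 0.13 in KO and 0.37 ± 0.13 in WT, in WT with overlapping groups, and at -0.24 (not called) in KO and -0.38 (called) in WT under total-count scaling.

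Of the 12 tested cytosolic J proteins, 8 rose, 3 fell and 1 was not called in each genotype (of all tested genes, 40% rose and 46.2% fell in KO, and 40.7% and 44.7% in WT). Dnaja1 (gene ID 15502), a general Hsp70 co-chaperone, stood at 354, 467, 569, 469 and 449 CPM in KO LPS and 343, 558, 543, 443 and 451 CPM in WT LPS, against 115, 116, 114 and 131 CPM in KO control and 117, 122, 118 and 115 CPM in WT control. Its log2 change was 1.96 ± 0.13 in KO and 1.99 ± 0.13 in WT, and LPS replicate 1 was again the lowest treated library in both. Dnaja2 (gene ID 56445), its close relative, stood at 448, 411, 418, 444 and 426 CPM in KO LPS and 391, 441, 362, 367 and 380.0 CPM in WT LPS, against 81.7, 81.5, 81.0 and 92.2 CPM in KO control and 84.0, 80.8, 79.5 and 79.9 CPM in WT control. Dnaja2 was far more even across replicates, and its log2 change was 2.35 ± 0.06 in KO and 2.26 ± 0.06 in WT. Dnajb1 (gene ID 81489), the inducible Hsp40, stood at 68.7, 87.7, 113, 91.6 and 83.1 CPM in KO LPS and 77.5, 108, 118, 93.2 and 103 CPM in WT LPS, against 34.9, 38.6, 37.0 and 37.1 CPM in KO control and 37.1, 42.2, 35.4 and 33.9 CPM in WT control. The log2 change of Dnajb1 was 1.27 ± 0.12 in KO and 1.43 ± 0.12 in WT. Dnajb6, which keeps aggregating proteins in solution, rose by 1.73 ± 0.08 in KO and 1.61 ± 0.08 in WT. The members that fell were Dnajb4 (-0.39 in KO and -0.44 in WT), the ribosome-associated Dnajc2 (-0.28 and -0.21) and Dnajc24 (-0.99 and -0.83), which acts in diphthamide synthesis. The call of Dnajb4 ended in KO with the DESeq2 test (adjusted p = 0.11) and without KO LPS replicate 1 or 3 or KO control replicate 4 (0.063 to 0.11), and in WT without WT control replicate 2 (0.052). The remaining 4 that rose were Dnajb5 (1.19 in KO and 1.08 in WT), Dnajb2 (0.94 and 1.17), Dnajc7 (0.90 and 0.86), which binds Hsp70 and Hsp90, and Dnajc5 (0.26 and 0.29), the cysteine string protein of vesicles. Under total-count scaling Dnajc5 was lower (-0.52 in KO and -0.45 in WT) and Dnajb2 was not called in KO (0.16).

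**Figure D2:**
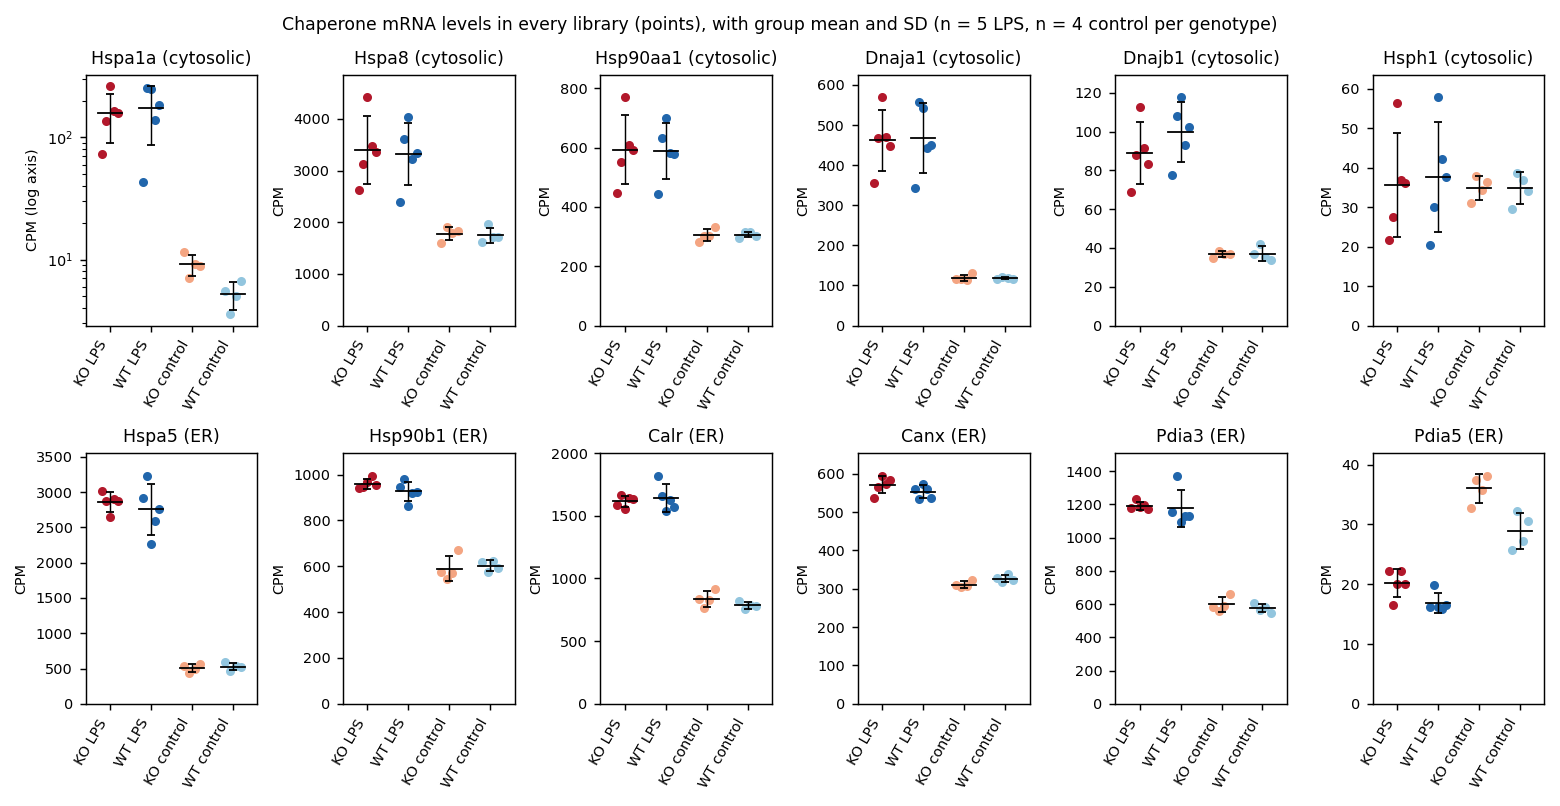
TMM-scaled CPM (a log axis for Hspa1a and linear axes for the others) in each of the 18 libraries, by group (KO LPS, WT LPS, KO control, WT control), for members described in the text, with the mean and SD of each group. LPS and control libraries are apart for Hspa5 and Hspa1a, while the LPS libraries of Hsph1, at 20.3 to 57.8 CPM, lie on both sides of the controls at 29.5 to 38.6 CPM, and total-count scaling turns Hsph1 to lower.

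Of the 8 mitochondrial members, 5 fell in each genotype (of all tested genes, 46.2% fell in KO and 44.7% in WT), and 1 rose (Dnajc11, a protein of the inner membrane folds, lower under total-count scaling at -0.52 in both genotypes). Dnajc15 (0.05 in KO and 0.18 in WT) and Dnajc19 (0.19 and 0.15) were not called, and the 8 members had a median log2 change of -0.24 in KO and -0.21 in WT. Hspe1 (Hsp10, gene ID 15528), the lid of the mitochondrial chaperonin, stood at 32.7, 33.8, 52.6, 35.1 and 32.9 CPM in KO LPS and 43.9, 32.6, 53.9, 48.8 and 37.3 CPM in WT LPS, against 69.1, 65.3, 56.9 and 72.2 CPM in KO control and 69.1, 71.6, 56.4 and 57.9 CPM in WT control. Its log2 change was -0.82 ± 0.14 in KO (edgeR adjusted p = 2.9e-05) and -0.56 ± 0.14 in WT (adjusted p = 0.0014). Its partner Hspd1 (Hsp60) changed by -0.33 ± 0.09 in KO and -0.35 ± 0.09 in WT, the mitochondrial J protein Dnaja3 by -0.73 ± 0.08 and -0.53 ± 0.08, and the mitochondrial Hsp70 Hspa9 by -0.14 ± 0.06 and -0.18 ± 0.06. The call of Hspa9 in KO (adjusted p = 0.045) ended with the DESeq2 test (adjusted p = 0.46), with the library runs as a block (0.066), and without KO LPS replicate 1, 2 or 5, KO control replicate 1, 3 or 4, or WT LPS replicate 3 (0.057 to 0.11), and that in WT with DESeq2 size factors (0.054). Of the 4 ER membrane proteins, Dnajc18 and Dnajb14 fell and Dnajc14 rose by 0.30 in KO and 0.25 in WT, with the sign turned under total-count scaling (-0.48 and -0.49).

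Among the 11 other members, 4 rose and 6 fell in each genotype (of all tested genes, 40% rose and 46.2% fell in KO, and 40.7% and 44.7% in WT). Of the 4 that rose, 1 in KO and 2 in WT stayed higher under total-count scaling. Dnajc13 (RME-8), which works on endosomes, had the largest rise. It stood at 365, 383, 329, 335 and 362 CPM in KO LPS and 277, 387, 289, 309.6 and 325 CPM in WT LPS, against 73.1, 73.3, 72.4 and 59.7 CPM in KO control and 72.9, 75.3, 81.9 and 76.0 CPM in WT control, with log2 changes of 2.35 ± 0.09 and 2.05 ± 0.09. Dnajc21, known from ribosome assembly, rose by 0.88 ± 0.06 in KO and 0.91 ± 0.06 in WT, and under total-count scaling it was not called in KO (0.10, adjusted p = 0.13). The falls were led by Dnajc28, which passed the filter only through its control libraries. It had 3, 6, 9, 4 and 5 estimated counts in KO LPS and 8, 0, 7, 6 and 11 in WT LPS, against 224, 223, 226 and 244 in KO control and 260, 219, 251 and 230 in WT control. Dnajc9, a histone co-chaperone of the nucleus, changed by -1.61 ± 0.13 in KO and -1.26 ± 0.13 in WT, and Dnajc25 by -1.49 ± 0.12 and -1.13 ± 0.11.

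The deposited TPM values, which are scaled by transcript length and to a fixed total per library, show what these changes did to the makeup of each compartment. Hspa5 held 33.6% of the ER members' TPM in KO LPS and 32.9% in WT LPS, where it was at rank 1, against 14.2% in KO control and 14.9% in WT control, where it was at rank 4. Calr held 25.9% in KO LPS and 26.8% in WT LPS, against 31.8% in KO control and 30.4% in WT control, where it was at rank 1. The ER members summed to 4515 ± 91.3 TPM in KO LPS and 4581 ± 122 TPM in WT LPS (SD, n = 5 each), against 2993 ± 160.2 TPM in KO control and 3217 ± 153 TPM in WT control (SD, n = 4 each). In the cytosol the makeup changed less. Hspa8 held 44.3% of cytosolic TPM in KO LPS and 44.8% in WT LPS, against 42.7% in KO control and 43.1% in WT control, and Hsp90ab1 held 26.0% and 25.1% with LPS, against 33.4% and 32.8% in control. The cytosolic sum was 5071 ± 802 TPM in KO LPS and 5070 ± 812 TPM in WT LPS, against 4315 ± 155 TPM in KO control and 4600 ± 263 TPM in WT control, and the treated libraries ranged more widely than the controls. The mitochondrial sum was 387 ± 43.3 TPM in KO LPS and 417 ± 56.5 TPM in WT LPS, against 756 ± 30.8 TPM in KO control and 810.0 ± 21.8 TPM in WT control. Since TPM is not TMM scaled, differences between LPS and control in these sums lie lower than the TMM-scaled changes above, as under total-count scaling.

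**Figure D3:**
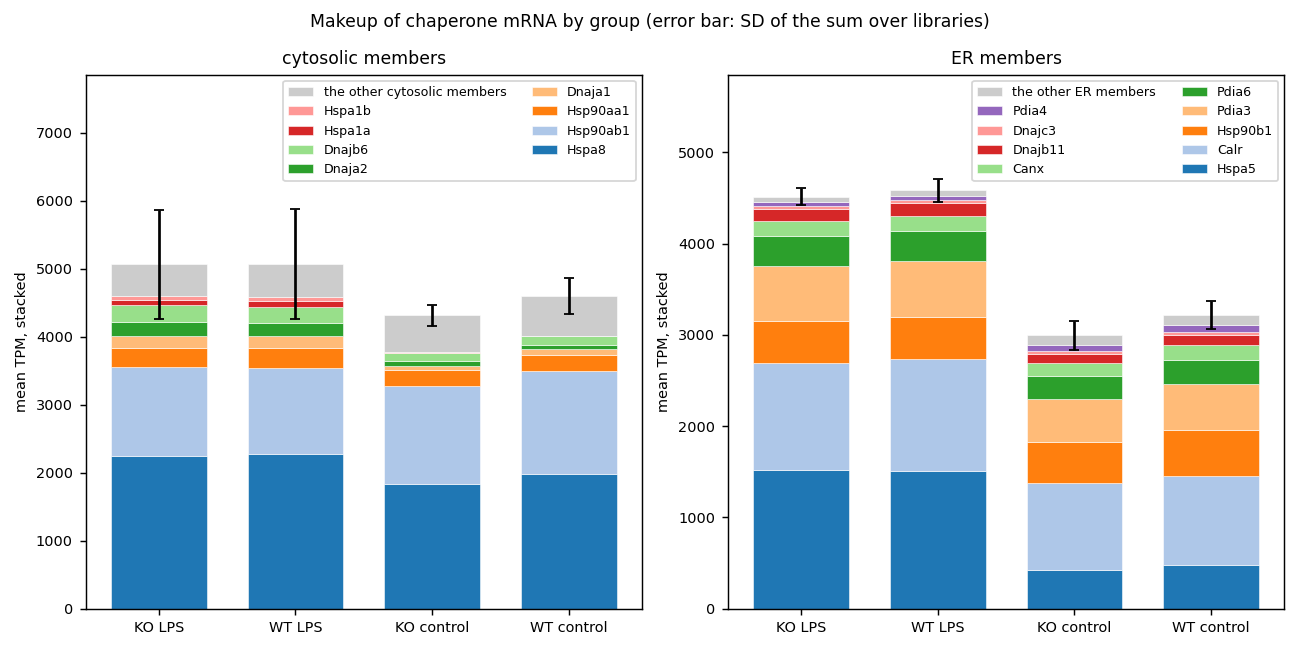
Mean TPM of the members of the cytosol and of the ER, stacked, in KO LPS, WT LPS, KO control and WT control, with the SD of the sum over the libraries of a group. Hspa5 holds 33.6% of the ER sum in KO LPS and 32.9% in WT LPS, against 14.2% in KO control and 14.9% in WT control, whereas Hspa8 holds 42.7% to 44.8% of the cytosolic sum in every group.

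The library names carry numbers up to 20, read here in successive runs of 4. Of these 5 runs, 4 hold 1 library of each group, and the run from 5 to 8 holds only WT LPS and KO LPS replicate 2. The labels do not call a run a batch. Within these runs, all 54 members called for LPS kept their direction in all 4 runs in KO, and 52 of 54 did in WT (not Dnajb4 and Hspa4l). These counts add no support, since a member whose LPS and control libraries do not overlap must keep its direction in every run. That was so for all 54 in KO and for most of the 54 in WT. Hspa5 differed by 2.33 to 2.59 (log2 of CPM + 1) in KO and 2.28 to 2.40 in WT across runs. Hspa1a differed by 2.57 to 5.03 in KO and 2.77 to 5.79 in WT. Hsph1 was higher in 2 runs and lower in 2 in KO (-0.50 to 0.56), and higher in 3 and lower in 1 in WT (-0.52 to 0.57).

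The treated libraries differed among themselves in the cytosolic set more than in the ER set, and in the same replicates of both genotypes. The highest LPS library was 3.59 times the lowest for Hspa1a in KO and 5.90 times in WT, 2.61 and 2.85 times for Hsph1, and 1.69 times in each genotype for Hspa8, but 1.14 and 1.43 times for Hspa5. LPS replicate 1 was the lowest treated library in both KO and WT for 11 of 24 cytosolic members (45.8%, against 5.05% of all tested genes), and replicate 3 was the highest in both for 8 of 24 (33.3%, against 10.7%). Hspa8, Hsp90aa1, Hsp90ab1, Hsph1, Hspa4l and Dnajb1 had both features. Hspa1a, Hspa1b, Hspa1l and Dnaja1 shared the low replicate 1, but WT replicate 2 was their highest WT library. Of 14 ER members, 4 (Hspa5, Calr, Dnajc3 and Dnajc10) were instead lowest in replicate 3 in both genotypes (28.6%, against 11.2% of all tested genes). The ratio of ER to cytosolic TPM was thus 1.08 in KO LPS and 1.21 in WT LPS of replicate 1, against 0.741 in KO control and 0.773 in WT control of the same run, but 0.707 in KO LPS and 0.712 in WT LPS of replicate 3, against 0.619 in KO control and 0.625 in WT control of its run. These shares describe the libraries and were not tested.

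**Figure D4:**
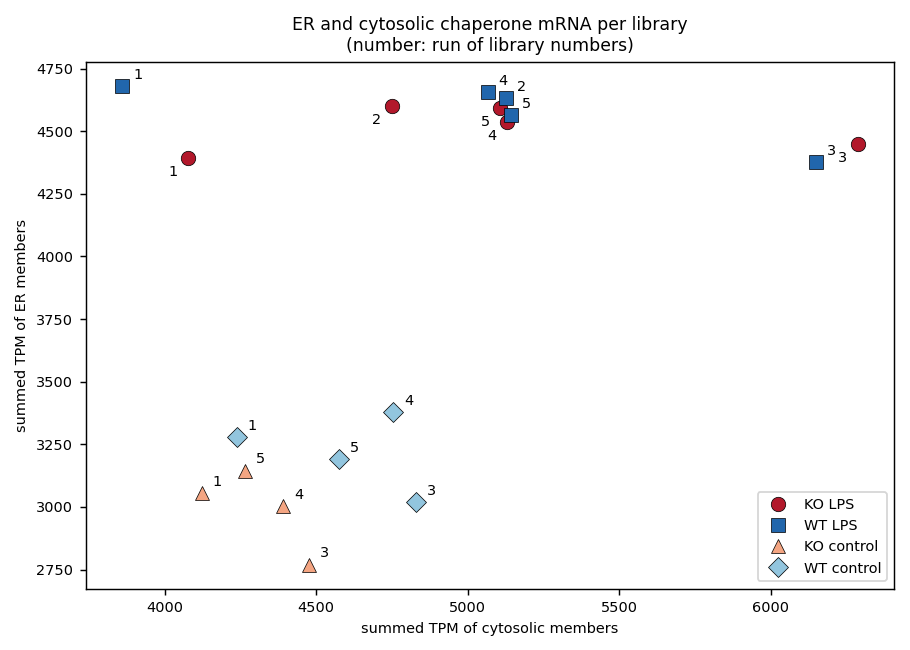
Summed TPM of ER members against summed TPM of cytosolic members, a point for each of the 18 libraries, by group. LPS libraries lie at 4378 to 4681 TPM of ER members across 3860 to 6287 TPM of cytosolic members, and controls at 2770 to 3379 TPM of ER members.

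Genes outside the members that act with them were read from 6 lists, against a background of all tested genes with 40% higher and 46.2% lower in KO, and 40.7% and 44.7% in WT. Of 4 heat shock factor genes, 2 rose and 1 fell with LPS in each genotype (1 higher and 1 lower in KO and 1 and 2 in WT under total-count scaling). Hsf1, the main factor of the cytosolic response, stood at 22.0, 18.1, 22.4, 22.7 and 21.7 CPM in KO LPS and 25.4, 13.0, 24.1, 24.0 and 22.4 CPM in WT LPS, against 32.6, 33.5, 32.2 and 32.5 CPM in KO control and 32.7, 33.9, 31.5 and 31.5 CPM in WT control, with log2 changes of -0.61 ± 0.12 and -0.57 ± 0.12. Hsf5, called higher, passed the filter only through its LPS libraries, at 0.889 to 1.15 CPM in KO LPS and 0.864 to 1.17 CPM in WT LPS, against 0.225 to 0.282 CPM in KO control and 0.165 to 0.303 CPM in WT control. Of 21 co-chaperones of Hsp70 and Hsp90, 14 rose and 5 fell in each genotype, against 6 higher and 13 lower in KO and 6 and 12 in WT under total-count scaling, with Bag3, a partner of Hsp70 in autophagy, rising most (2.01 ± 0.07 in KO, 1.91 ± 0.07 in WT) and Bag4 falling most (-1.98 ± 0.11 and -1.95 ± 0.11). Of 14 subunits of the cytosolic chaperonin and of prefoldin, 10 rose in each genotype and 1 fell in KO (Pfdn6, -0.26 ± 0.08), whereas under total-count scaling 1 was higher in each and 11 lower in KO and 10 in WT. Among them Cct3, a chaperonin subunit, changed by 2.86 ± 0.06 in KO and 2.88 ± 0.06 in WT. The median log2 change on that list was 0.28 in KO and 0.29 in WT, and -0.51 and -0.45 under total-count scaling.

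Of 10 UPR sensors and factors, 8 rose and 2 fell in KO, and 7 rose and 2 fell in WT, against 6 higher and 4 lower in each under total-count scaling. Chac1, a target of the Atf4 branch, had the largest rise (4.70 ± 0.22 in KO and 3.61 ± 0.20 in WT), and the sensor gene Eif2ak3 (PERK) the steepest fall (-1.42 ± 0.09 and -1.53 ± 0.09). Of 15 genes of ER-associated degradation, 10 rose and 4 fell in KO, and 8 rose and 4 fell in WT (5 higher and 9 lower in KO and 5 and 8 in WT under total-count scaling), led by Herpud1 (2.91 ± 0.05 and 2.85 ± 0.05) and, in the other direction, Erlec1 (-1.12 ± 0.06 and -1.15 ± 0.06). All tested genes moved both ways (40% higher and 46.2% lower in KO, 40.7% and 44.7% in WT), and so did the 21 further ER folding factors. Of these, 8 rose and 10 fell in KO, and 6 rose and 11 fell in WT (3 higher and 18 lower in KO and 2 and 18 in WT under total-count scaling), between Creld2 (1.47 ± 0.09 and 1.42 ± 0.09) and Erp29, a PDI relative (-2.27 ± 0.07 and -1.90 ± 0.07). Each gene named from these lists kept its direction under total-count scaling.

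The second question was whether KO cells differed from WT cells. In control cells, edgeR called 0 of 61 members, against a background of 2.41% of all tested genes, with 4 members at an unadjusted p under 0.05 (Pdia5, Dnajc27, Dnajc17 and Dnajc3). DESeq2 called 0 members (4.12% of all genes) and limma-voom 1 (3.44%). Log2 differences between KO and WT ran between -0.19 (Hspa4l) and 0.82 (Hspa1a). In CPM, 6 members were higher in every KO control library than in any WT control library and 1 was lower (Hspa4l), against 9.22% and 5.45% of all tested genes. Hspa1a was among the 6, at 11.5, 7.11, 9.20 and 8.81 CPM in KO and 5.50, 3.57, 5.00 and 6.72 CPM in WT, a log2 difference of 0.82 ± 0.47 (edgeR adjusted p = 0.48). It was called when only the control groups were fitted (adjusted p = 0.010). Within the 4 runs its difference (log2 of CPM + 1) was 0.95, 0.83, 0.77 and 0.35. The shared sign adds no support, since groups that do not overlap must keep their direction in every run. Pdia5 was another, at 32.8, 37.4, 35.7 and 38.1 CPM in KO and 25.7, 32.3, 27.2 and 30.5 CPM in WT, with a log2 difference of 0.31 ± 0.09 (adjusted p = 0.08). It was called without WT LPS replicate 2 or without KO LPS replicate 2.

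With LPS, 1 of 61 members was called, against a background of 10.8% of all tested genes, and 7 had an unadjusted p under 0.05. The called member was Hspa2, at 13.6, 13.8, 11.0, 11.8 and 12.2 CPM in KO LPS and 9.45, 12.3, 9.55, 8.46 and 10.8 CPM in WT LPS. Its log2 difference was 0.31 ± 0.09 (edgeR adjusted p = 0.037), and the groups overlapped. The call ended under total-count scaling, with only the 2 LPS groups fitted, without WT LPS replicate 1, 3 or 4, and without KO LPS replicate 1, 2, 4 or 5 (adjusted p between 0.054 and 0.13 in these fits). No member was without overlap between KO LPS and WT LPS, against 3.31% of all tested genes higher and 3.2% lower. Log2 differences ran between -0.37 (Dnajc9) and 0.31 (Hspa2). Hspa5 differed by 0.05 ± 0.09, Calr by -0.02 ± 0.05 and Hspa8 by 0.03 ± 0.12, each no larger than its SE, while Hspa1a differed by -0.13 ± 0.34, a difference not detectable beside that error. The count moved most with 1 library. Without WT LPS replicate 2, 10 members were called, 6 higher in KO (Dnaja2, Dnajb6, Dnajc13, Dnajc7, Hspa2 and Pdia5) and 4 lower (Dnaja3, Dnajc25, Dnajc9 and Hspa14), against 27.9% of all tested genes in the same comparison. None of the 10 was a heat-inducible Hsp70 or Hsp90 gene.

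**Figure D5:**
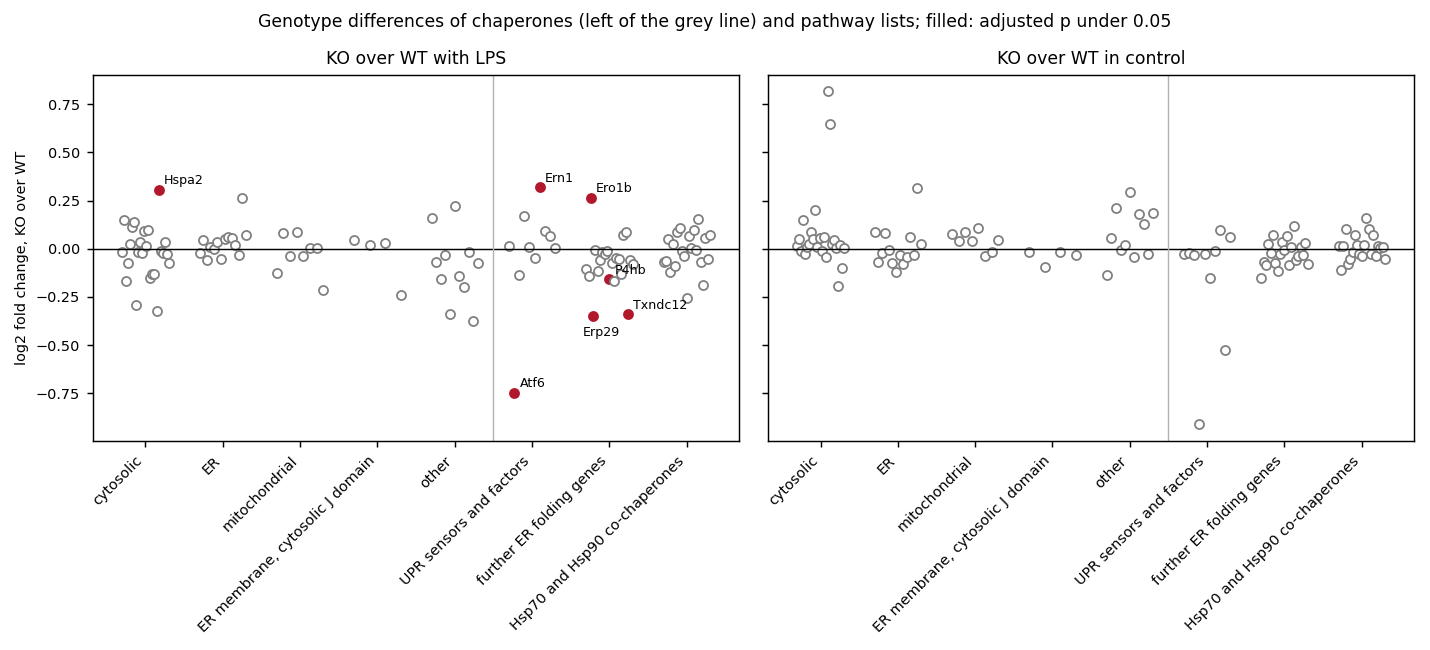
Log2 difference, KO against WT, with LPS and in control, a point for each tested member by compartment and for each gene of 3 partner lists, filled where the adjusted p was under 0.05. Members lie between -0.37 and 0.31 with LPS and between -0.19 and 0.82 in control, and the only member called is Hspa2 with LPS, beside 6 list genes.

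The change with LPS was also compared between genotypes. The interaction called 0 of 61 members, against a background of 3.82% of all tested genes, with 5 members at an unadjusted p under 0.05 (Dnajb2, Dnajc13, Dnajc17, Dnajc25 and Dnajc4). DESeq2 called 1 (Canx, against 7.85% of all genes in that fit) and limma-voom 0 (3.95%), and 4 members were called without WT LPS replicate 2 (12.5%). For Hspa1a the LPS change in KO minus that in WT was -0.95 ± 0.58 (edgeR adjusted p = 0.39), and for Hspa5 it was 0.10 ± 0.13 (adjusted p = 0.73).

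Among the partner genes, the UPR sensor gene Atf6 did differ. Atf6, whose cleaved product drives ER chaperone genes, stood at 311, 352, 291, 298 and 317 CPM in KO LPS, against 451, 688, 465, 474 and 552 CPM in WT LPS, without overlap. In control it stood at 145, 145, 139.6 and 121 CPM in KO and 130.4, 139.5, 146 and 143 CPM in WT. The log2 difference with LPS was -0.75 ± 0.09 (edgeR adjusted p = 3.2e-05), and the interaction was -0.72 ± 0.14 (adjusted p = 0.0068), called under all 26 alternatives. Atf6 thus rose in both genotypes, by 1.19 ± 0.10 in KO and 1.91 ± 0.10 in WT. The oxidase gene Ero1b was 0.26 ± 0.05 higher in KO LPS than in WT LPS (adjusted p = 0.0015), and Erp29 was lower, at -0.35 ± 0.07 (adjusted p = 0.0017). On the same lists Ern1, the gene of the sensor IRE1 alpha, was higher (0.32 ± 0.09, adjusted p = 0.033), and Os9, P4hb and Txndc12 were lower in KO LPS (-0.14 ± 0.04, -0.16 ± 0.05 and -0.34 ± 0.09). These 4 calls were less steady than those of Atf6, Ero1b and Erp29, which held under all 27 alternatives, since Ern1 was called under 19 of 27, Os9 under 16, P4hb under 9 and Txndc12 under 21. Together these made 2 of 10 UPR genes, 4 of 21 further ER folding factors and 1 of 15 degradation genes. On the other lists (4 heat shock factors, 21 co-chaperones, and 14 chaperonin and prefoldin subunits) no gene was called. Of all tested genes, 10.8% were called.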

How the data were processed

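RNA-seq of 18 libraries was used. Per the labels' protocols, RNA was taken with the miRNeasy Micro Kit and read as paired 150-base reads on DNBSEQ. Per the submitters' processing notes, HISAT, Bowtie2 and the build GRCm39 were used. Tool versions are not given in the sources used, nor are the annotation or the counting program. Per the file headers, the deposited table has 3 columns a library, which hold estimated counts, TPM and FPKM. The deposited estimated counts are unnormalized, and 6.37% are not whole (tolerance 0.001). TPM served for levels between genes, and the deposited FPKM values were not used.

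Counts were rounded and tested with edgeR 4.0.16 (R 4.3.3, limma 3.58.1), after filterByExpr (minimum count 10, minimum total 15), with TMM factors and a quasi-likelihood fit of 4 group means to all 18 libraries. Calls were made at an adjusted p under 0.05 (Benjamini-Hochberg, over all 11989 genes). SE is the size of the log2 change divided by the square root of F. The steps were tested on simulated counts for KO against WT with LPS, in which a small set of genes was changed in KO LPS only. Those counts held no LPS change, so they could not test the scaling between LPS and control. Libraries held 25590104 estimated counts or more, and counting error weighs most in members with few counts (Hspa1l, Dnajc28, Dnajb4 and Dnajc12). Alternatives were DESeq2 size factors, total-count scaling, no filter, DESeq2 1.42.0, limma-voom, only the groups compared, replicate blocks, and libraries left out.

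Members and gene lists were chosen with earlier results of these data known. Values are named for a fixed set of members, the 3 called members with the largest change each way per compartment and contrast, and the called gene at each end of a partner list. Members named beyond these, and the partner genes called between genotypes, were chosen after their values were seen. Compartments follow textbook knowledge, and counts by compartment depend on that placing, as for Dnajc16 and Dnajc25. Motifs were searched on both strands of RefSeq promoters (GRCm38.p6). Shared sequence was read from GENCODE M21 transcripts in windows of 100 bases, as a guide only, since the counting of shared reads is not stated.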

Additional observations from a re-analysis of the deposited data

Results flagged for a closer look

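A library was taken as apart when it lay farther from its group than Dixon's 95% limit. Of 200 gene and group values scanned, 16 were apart (8%), and chance gives about 1 in 20. No explanation was weighed.

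KO control replicate 4 was apart most often. It was highest for Dnaja1 (131 CPM, others 114 to 116), Hspd1 (184 CPM, others 158 to 162), Dnajc28 (6.72 CPM, others 6.27 to 6.34), Bag3 (16.9 CPM, others 15.3 to 15.5) and Erp29 (241 CPM, others 221 to 224). It was lowest for Dnajc13 (59.7 CPM, others 72.4 to 73.3) and Ern1 (46.4 CPM, others 59.5 to 60.4).

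WT LPS replicate 2 was highest for Pdia3 (1373 CPM, others 1094 to 1155) and Pdia5 (19.9 CPM, others 15.8 to 16.5) and lowest for Hsf1 (13.0 CPM, others 22.4 to 25.4). KO LPS replicate 2 was lowest for Hspb6 (1.19 CPM, others 1.73 to 1.90) and Hsf1 (18.1 CPM, others 21.7 to 22.7). The remaining values were Hspe1 in KO LPS replicate 3 (52.6 CPM, others 32.7 to 35.1), Dnajc27 in KO control replicate 1 (2.73 CPM, others 2.28 to 2.31), Bag4 in WT control replicate 3 (21.1 CPM, others 18.7 to 18.8) and Herpud1 in WT LPS replicate 1 (1059.8 CPM, others 937 to 969.8), each the highest of its group.

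The LPS change differed between genotypes for 3 partner genes. The change in KO minus that in WT was -0.72 ± 0.14 (SE) for Atf6 (edgeR adjusted p = 0.0068), 0.35 ± 0.07 for Ero1b (adjusted p = 0.012) and -0.37 ± 0.10 for Erp29 (adjusted p = 0.035). The first 2 were called under all 26 alternatives and Erp29 under 11 of them.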

How the results depend on the processing

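Counts of members called for LPS kept within 1.5 times of 54 in each genotype under every alternative run (53 to 54 in KO and 52 to 55 in WT with a library left out), among them the replicate block by title number (55 in KO and 55 in WT) and the replicate block by runs of library numbers (53 and 54). By title number, samples correlated at -0.06 to 0.61 between genotypes and -0.33 to 0.46 between treatments. By run, WT LPS and WT control correlated at 0.22 to 0.46 in all 4 pairs, KO LPS and KO control at -0.13 to 0.20. The run thus pairs WT LPS with WT control by the data, and there its block changed no member's call, while in KO it ended the LPS call of Hspa9 (adjusted p = 0.066), and over all genes it called 16.0% for KO against WT with LPS and 7.36% for the interaction, against 10.8% and 3.82%. Over the 175 named results, 4628 values kept direction and call, 19 lost the call, 26 gained it and 15 turned direction, and 191 further values called under neither setting changed sign.

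All 15 turned under total-count scaling, which lowers every LPS change by construction. In KO they were Hsph1 (-0.74), Hsp90ab1 (-0.26), Hsp90b1 (-0.078), Dnajb9 (-0.49), Dnajc3 (-0.26), Pdia4 (-0.63), Dnajc27 (-0.17) and Dnajc17 (-0.31), and in WT Hsph1 (-0.62), Hsp90ab1 (-0.26), Hsp90b1 (-0.13), Dnajb9 (-0.39), Dnajc3 (-0.29), Pdia4 (-0.59) and Dnajc27 (-0.058). That scaling called 16 members higher and 37 lower in KO, and 18 and 38 in WT, against 33 and 21 in each under TMM. Over all genes it called 2416 higher and 8437 lower in KO and 2379 and 8375 in WT, against 4794 and 5544 in KO and 4884 and 5362 in WT under TMM.

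Members called between genotypes in control (0) were 1 with limma-voom (3.44% of all genes), 3 with only the groups compared (7.71%), 1 without the libraries numbered 5 and 7 (WT LPS and KO LPS replicate 2, 6.88%), and 0 to 1 with a library left out. With LPS (1) they were 2 with DESeq2 size factors (11.4%), 2 with total-count scaling (12.9%), 3 with the DESeq2 test (15.5%), 0 with only the groups compared (5.53%), 10 without those 2 libraries (27.1%), 0 to 10 with a library left out (6.72% to 27.9%), and 1 under each replicate block. For the interaction (0) they were 1 with the DESeq2 test (7.85%), 4 without those 2 libraries (13.3%), and 0 to 4 with a library left out (1.72% to 12.5%). The cause of these differences was not tested.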
